A study of Mus musculus with 12 samples.

Results

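The genes described here encode 7 subunits of the GABA-A receptor: Gabra2, Gabra3, Gabra4, Gabra5, Gabrb1, Gabrb2 and Gabrd. They were taken by name, from the probe sets that the platform annotation gives 1 of these symbols, out of 18193 genes measured. The choice was made with earlier results of these data known, so counts of members beside all probe sets are descriptions. The 7 genes were covered by 21 of the 45037 probe sets tested. The brightest probe set of each gene, by its mean of 12 arrays, was read as its lead. All 7 leads had a mean above log2 4, and so did 15 of the 21 probe sets. The other 6 had means from 2.88 to 3.04, below the array medians of 3.12 to 3.14, and carried no usable level.

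GABA-A receptors are chloride channels opened by GABA, the main inhibitory transmitter of the brain, and each is a ring of subunits drawn from several families. The alpha subunit shapes where the receptor sits and how it responds to benzodiazepines, the beta subunit is needed to form the channel, and delta replaces gamma in receptors outside the synapse. Receptors with alpha4 and delta, or with alpha5, are known for slow tonic inhibition, and GABA-A receptors are among the long-studied targets of ethanol.

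RNA came from prefrontal cortex (PFC) and whole striatum of male Swiss mice, an outbred stock, aged 22 weeks at the end. All mice had free choice between water, 5% ethanol and 10% ethanol: 10 weeks of acquisition, 2 weeks of withdrawal, 2 weeks of reinstatement, 2 weeks with quinine at 0.005 g/L in the ethanol bottles, and 1 further week of free choice. Inflexible drinkers kept their preference for ethanol when it was bitter and had a mean blood ethanol of 113 ± 11.3 mg/dL (kind of error not stated). Light drinkers preferred water and had 48 ± 13.3 mg/dL. Each of the 4 groups, inflexible and light in each region, had 3 arrays. Water-only mice were not analysed here, so every class difference lies between 2 groups that both drank ethanol. One pool concentration is listed per group in the labels, so the 3 arrays may come from a shared RNA pool. In that case the p-values measure how arrays vary and say nothing of variation among mice.

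The deposited values are RMA summaries read as log2, from 2.76 to 11.56. The arrays fell into 2 sets by their spiked hybridisation controls, whose mean was 8.08 to 9.07 on 5 arrays and 6.20 to 6.80 on 7. The high set held PFC replicate 2 of both classes, striatal inflexible replicates 1 and 3 and striatal light replicate 1. The labels name no such split. The regions matched their labels in 13 striatal projection neuron markers, whose summed linear signal was 1474 to 2132 in striatum and 352 to 709 in PFC. Within PFC that sum was 704 to 709 in inflexible and 352 to 372 in light drinkers, and 7 of the 13 markers rose. Myelin markers stood likewise, at 1517 to 2104 in inflexible and 634 to 972 in light PFC (5 of 10 rose). The hippocampal neuron sums overlapped, at 78 to 101 in inflexible and 71 to 87 in light PFC (3 of 5 rose). Prox1, Lct and Fibcd1 of this list had means under log2 4. Of the brighter markers, Dsp averaged 4.17 in inflexible and 3.06 in light PFC. Wfs1 went the other way, at 5.29 in inflexible and 5.53 in light PFC. The choroid plexus sum was 1318 to 2179 in inflexible and 87 to 90 in light PFC (1 of 9 rose, Ttr), and the 8 other choroid markers had means under log2 4. Cortical excitatory markers overlapped in their sums, at 281 to 442 in inflexible and 324 to 492 in light PFC (Neurod6 rose, 1 of 7, and the median difference was -0.24). Within these sums Slc17a7 varied widely among arrays, from log2 3.90 to 7.51 in inflexible and 4.54 to 7.56 in light PFC. Of the cortical excitatory markers, Cux2 (log2 5.12 to 5.46 in inflexible and 6.05 to 6.44 in light PFC) lay wholly lower in inflexible PFC. So did Rorb (5.19 to 5.40 in inflexible and 5.73 to 6.23 in light PFC). Tbr1 did too (4.90 to 5.15 in inflexible and 5.25 to 5.29 in light PFC). None of them passed the test, and Gabra3 stood likewise. Interneuron markers overlapped too, at 639 to 782 in inflexible and 745 to 816 in light PFC (1 of 7 fell), as did astrocyte markers at 620 to 764 in inflexible and 662 to 776 in light PFC (0 of 6 changed). All 5 thalamic markers had means under log2 4. In striatum the limma test called 0 of the 62 markers of these 8 lists between the classes, with 18 at an unadjusted p under 0.05. The sums there lay apart for striatal projection neurons (2021 to 2132 in inflexible and 1474 to 1603 in light drinkers) and for interneurons (815 to 948 in inflexible and 608 to 725 in light drinkers). Between the regions of light drinkers 12 of 13 striatal, 10 of 10 myelin and 4 of 5 hippocampal markers rose and 3 of 7 cortical excitatory markers fell in striatum. In inflexible drinkers 12, 1, 0 and 2 of the same lists did so. In light drinkers 5 of 9 choroid plexus, 1 of 5 thalamic and 1 of 7 cortical excitatory markers also rose in striatum, and 2 interneuron and 1 astrocyte marker fell. In inflexible drinkers 1 interneuron marker rose and 1 fell. The part of these markers in the subunit differences below was not tested. In bulk tissue, fewer cells of a type and less RNA per cell cannot be told apart.

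**Figure D1:**
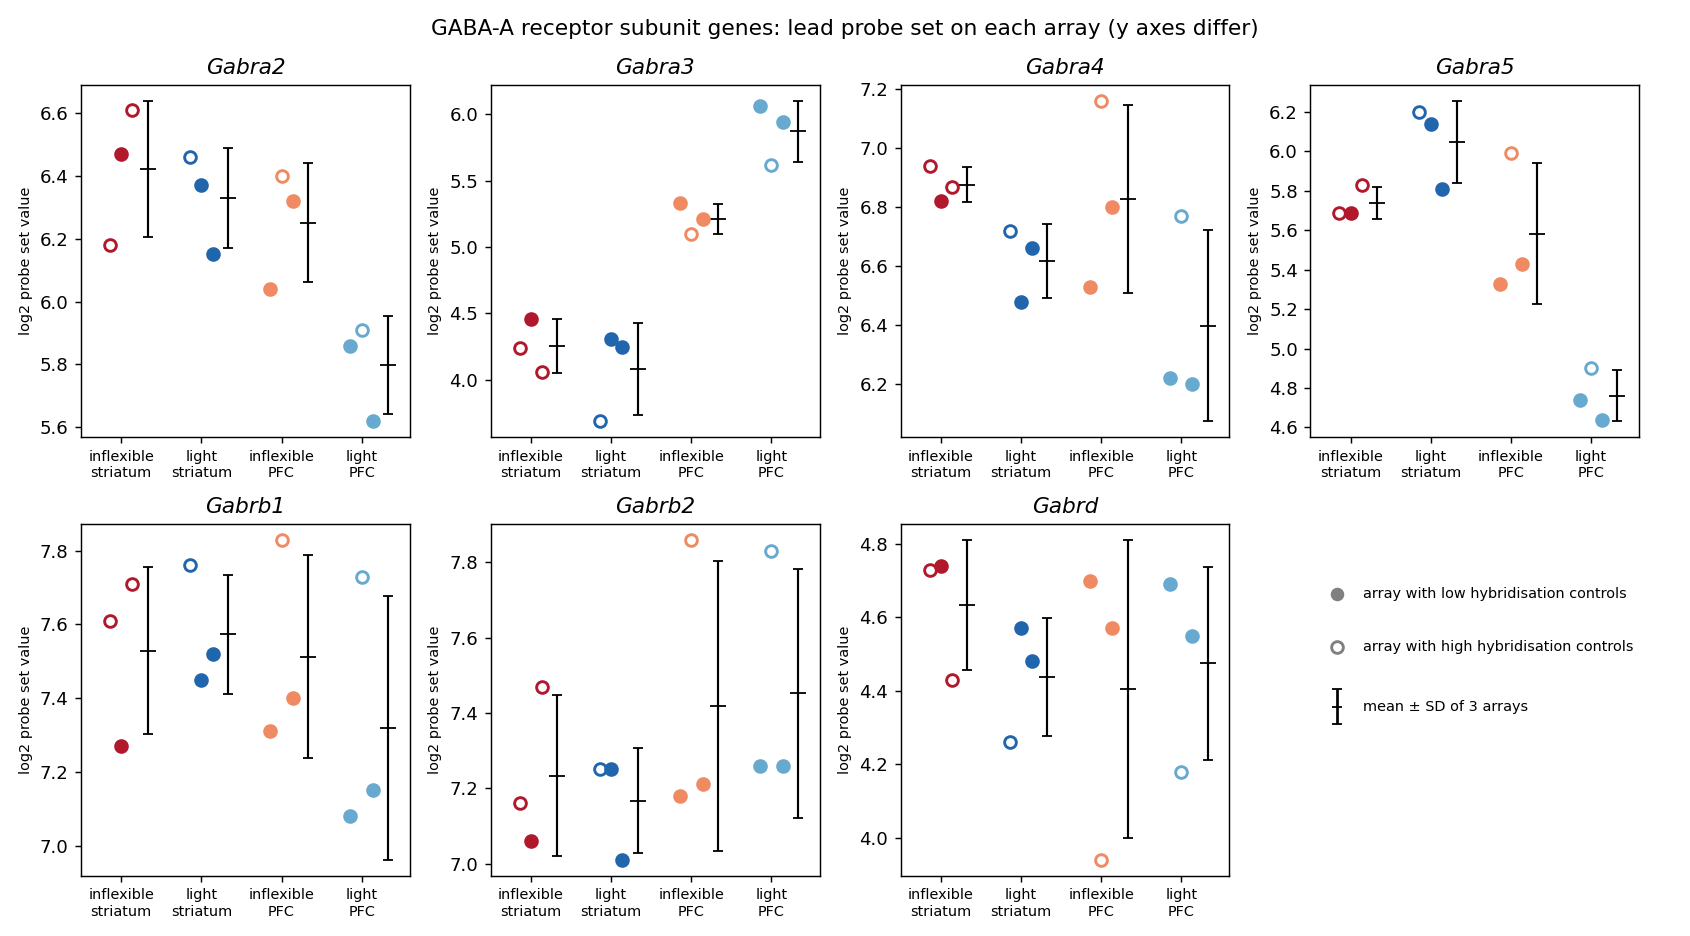
Lead probe set value (log2, y axis, a separate scale for each gene) on every array, by group on the x axis. Open points are arrays with high hybridisation controls, and the bars give the mean ± SD of 3 arrays. Gabra3 stood highest in light PFC and lowest in striatum, Gabra5 the other way round.

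In prefrontal cortex the alpha subunits differed most between inflexible and light drinkers, with Gabra5 and Gabra2 higher and Gabra3 lower, and none of the 7 lead probe sets passed the test (limma, 4 group means over 12 arrays, Benjamini-Hochberg adjusted p under 0.05 over all probe sets). At an unadjusted p under 0.05 there were 4 of 7: Gabra5, Gabra3, Gabra2 and Gabra4, against 7.61% of all probe sets and 14.6% of those with a mean above log2 4. After adjustment the test called 0.826% of all probe sets and 2.11% of those above log2 4. The 3 arrays of one class lay apart from the 3 of the other for 3 of the 7 leads, Gabra2, Gabra3 and Gabra5, against 12.9% of all probe sets and 18.4% of those above log2 4. The median difference of the 7 leads was 0.19, beside 0.00 (-0.0006) over all probe sets. Since the members were chosen with earlier results of these data known, these shares and medians are descriptions and not a test. With the control split as a block the test called 2 of 7, Gabra3 and Gabra5. Same-numbered PFC arrays deviated together, but inflexible PFC replicate 1 was closer to a light PFC array with another number. Replicate 2 was also the high-control array of both PFC classes. With the replicate number as a block in the 6 PFC arrays alone, a fit chosen after seeing the data that called 899 probe sets in all, it called 1 of 7, Gabra3 (adjusted p = 0.0301). The planned replicate block over all 12 arrays called 0 of 7 (Gabra3 0.374, Gabra5 0.0902).

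Between the regions of light drinkers the picture was sharper: Gabra5 was higher and Gabra3 lower in striatum than in PFC, and both passed the test (1 of 7 each way). The test called 3.32% of all probe sets and 8.5% of those above log2 4. The regions did not overlap for 4 of 7 leads (Gabra2 and Gabra5 higher, Gabra3 and Gabrb2 lower in striatum), against 16.3% of all probe sets and 25.6% of those above log2 4. In inflexible drinkers Gabra3 alone of the 7 was called, lower in striatum. The background there was 0.773% of all probe sets and 2.37% of those above log2 4. Gabra3 was also the only lead whose regions did not overlap, against 11.5% and 16.8% of the same probe sets. The comparison of PFC classes and that of regions in light drinkers share the light PFC arrays, so their values are given side by side and not as separate support.

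**Figure D2:**
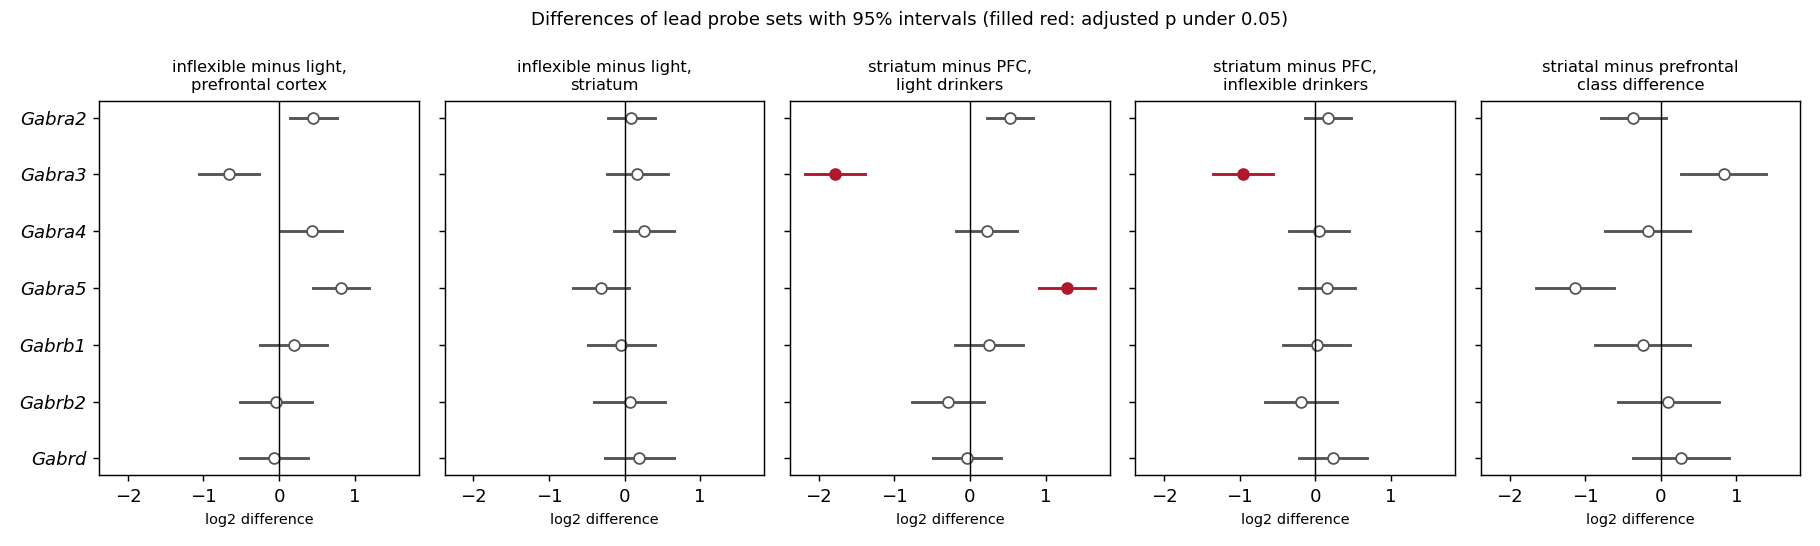
Difference of each lead probe set (log2, x axis) with its 95% interval in the 5 comparisons, 1 panel each. Filled red points passed the test: Gabra3 and Gabra5 between the regions of light drinkers and Gabra3 between those of inflexible drinkers.

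Gabra5 encodes alpha5, a subunit abundant in hippocampus and known for receptors outside the synapse. Its lead, and only, probe set read 5.33, 5.99 and 5.43 in inflexible PFC, against 4.74, 4.90 and 4.64 in light PFC. It read 5.69, 5.69 and 5.83 in inflexible striatum, against 6.20, 6.14 and 5.81 in light striatum. All inflexible PFC arrays lay above all light PFC arrays, while the striatal classes overlapped, with light drinkers at the top. In PFC the difference was 0.82 ± 0.16 (SE), or 1.77-fold (95% interval 0.45 to 1.19, adjusted p = 0.0641). It was 1.09 on the high-control arrays, where each PFC class has 1 array, and 0.69 on the low-control arrays. With the control split as a block the adjusted p was 0.00872. Leaving out 1 array at a time gave 0.62 to 0.95 (adjusted p from 0.0675 to 0.246). In striatum the difference was -0.31 ± 0.16 (interval -0.68 to 0.06, adjusted p = 1.00). The striatal class difference lay 1.13 (SE 0.23) below the prefrontal one, a test of the difference itself that did not pass (adjusted p = 0.120) and passed with the control split as a block (-1.23, adjusted p = 0.0117).

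Between regions, Gabra5 averaged 6.05 ± 0.21 in striatum and 4.76 ± 0.13 in PFC of light drinkers (SD, n = 3 each), a rise of 1.29 ± 0.16 or 2.44-fold (limma adjusted p = 0.00194). In inflexible drinkers it averaged 5.74 ± 0.08 in striatum and 5.58 ± 0.36 in PFC. That difference was 0.15 ± 0.16 (interval -0.22 to 0.52, adjusted p = 1.00) and turned to -0.23 on the high-control arrays. The groups ran, high to low, light striatum, inflexible striatum, inflexible PFC and light PFC, and light PFC alone was clear of its neighbour.

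Gabra3 encodes alpha3, found in cortical and brainstem neurons and a target of benzodiazepines. Its lead read 5.33, 5.10 and 5.21 in inflexible PFC, against 6.06, 5.62 and 5.94 in light PFC. In striatum it read 4.24, 4.46 and 4.06 in inflexible drinkers, against 3.69, 4.31 and 4.25 in light drinkers. Light PFC arrays were all above inflexible PFC arrays, and every PFC array was above every striatal array of both classes. The PFC difference was -0.66 ± 0.18 (interval -1.06 to -0.26, adjusted p = 0.201), a level 1.58-fold lower in inflexible drinkers. It was -0.52 on the high-control and -0.73 on the low-control arrays, and with the control split as a block it passed (adjusted p = 0.00562). Without 1 array it ran from -0.79 to -0.57 (adjusted p from 0.0698 to 0.567). The striatal difference was 0.17 ± 0.18 (interval -0.23 to 0.57), and the difference between the class effects 0.83 ± 0.25 (adjusted p = 0.421). With the control split as a block this difference between effects passed (0.95, adjusted p = 0.00969).

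In light drinkers Gabra3 averaged 4.08 ± 0.35 in striatum and 5.87 ± 0.23 in PFC (SD, n = 3 each), so it fell by 1.79 (SE 0.18), 3.46-fold (limma adjusted p = 0.000433). In inflexible drinkers it averaged 4.26 ± 0.20 in striatum and 5.21 ± 0.11 in PFC, a change of -0.96 ± 0.18 or 1.94-fold (adjusted p = 0.0461). The call in inflexible drinkers was lost without any 1 of 10 arrays (adjusted p from 0.0542 to 0.177). It was kept without light PFC replicate 2 or light striatum replicate 1. The difference itself stayed between -1.06 and -0.86. The striatal levels of the lead, down to 3.69 on light striatum replicate 1, lay near log2 4, so signal near background limits these differences. A second Gabra3 probe set averaged 2.95 and carried no level.

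Gabra2 encodes alpha2, a subunit at the axon initial segment, and the human gene has long been studied in alcohol dependence. Its lead read 6.04, 6.40 and 6.32 in inflexible PFC, against 5.86, 5.91 and 5.62 in light PFC. It read 6.18, 6.47 and 6.61 in inflexible striatum, against 6.46, 6.37 and 6.15 in light striatum. The PFC classes did not overlap, the striatal classes did, and light PFC was the lowest group. The difference was 0.45 ± 0.14 in PFC (1.37-fold, interval 0.15 to 0.76, adjusted p = 0.285) and 0.09 ± 0.14 in striatum (interval -0.21 to 0.40). Striatum stood 0.53 ± 0.14 above PFC in light drinkers (adjusted p = 0.0787), which passed with the control split as a block (adjusted p = 0.0416). In inflexible drinkers it stood 0.17 ± 0.14 above PFC.

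Gabra2 also supplied the 1 member probe set of 21 called between the PFC classes, its dimmest above log2 4. That probe set read 4.78, 4.91 and 4.77 in inflexible PFC, against 4.42, 4.54 and 4.43 in light PFC. It rose by 0.36 ± 0.06, or 1.28-fold (limma adjusted p = 0.0341). The call was lost without any 1 of 7 arrays (adjusted p from 0.0553 to 0.15): the inflexible PFC replicates 1, 2 and 3, light PFC replicates 1 and 3, inflexible striatum replicate 1 and light striatum replicate 2. It was also lost with quantile normalization (0.144), with the filter on low values (0.0892), with the replicate block over all arrays (0.0748), with only the 2 groups (0.0957) and on the high-control arrays (0.546). It differed between the regions of light drinkers as well, at 4.95 in striatum and 4.46 in PFC, a rise of 0.49 ± 0.06 (adjusted p = 0.00184). The remaining Gabra2 probe set above log2 4 differed by 0.53 ± 0.22 between the PFC classes (adjusted p = 0.588), so all 3 pointed the same way there.

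Gabra4 encodes alpha4, the usual partner of delta in receptors outside the synapse, and medium spiny neurons of the striatum express it. Its lead read 6.53, 7.16 and 6.80 in inflexible PFC, against 6.22, 6.77 and 6.20 in light PFC. It read 6.94, 6.82 and 6.87 in inflexible striatum, against 6.72, 6.48 and 6.66 in light striatum. Within each PFC class replicate 2, the high-control array, was the highest, and the PFC classes overlapped. The striatal classes did not overlap. This was the only one of the 7 leads with separate striatal classes, against 7.84% of all probe sets and 6.76% of those above log2 4. The differences were 0.43 ± 0.18 in PFC (interval 0.03 to 0.83, adjusted p = 0.592) and 0.26 ± 0.18 in striatum (interval -0.14 to 0.65, adjusted p = 1.00). The second Gabra4 probe set gave 0.26 ± 0.11 and 0.16 ± 0.11 in the same comparisons. Its striatal classes overlapped, at 5.33 to 5.56 in inflexible and 5.23 to 5.36 in light drinkers. Striatum minus PFC was 0.22 ± 0.18 in light and 0.05 ± 0.18 in inflexible drinkers for the lead.

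Of the beta subunits, Gabrb1 encodes beta1, and mice with point mutations in it have been reported to drink more ethanol. Its lead read 7.31, 7.83 and 7.40 in inflexible PFC, against 7.08, 7.73 and 7.15 in light PFC. It read 7.61, 7.27 and 7.71 in inflexible striatum, against 7.76, 7.45 and 7.52 in light striatum. By the lead the groups overlapped throughout, and the high-control arrays were the highest of each group. The difference was 0.19 ± 0.20 in PFC (interval -0.25 to 0.64, adjusted p = 0.991) and -0.04 ± 0.20 in striatum (interval -0.49 to 0.40). Its other probe sets above log2 4 differed in PFC by 0.29 ± 0.11 and 0.31 ± 0.19. The brighter of these kept the PFC classes apart, at 6.03 to 6.12 in inflexible and 5.73 to 5.83 in light drinkers (limma adjusted p = 0.55). Striatum minus PFC was 0.25 ± 0.20 in light and 0.02 ± 0.20 in inflexible drinkers for the lead.

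Gabrb2 encodes beta2, one of the most widespread subunits of the adult brain. Its lead read 7.18, 7.86 and 7.21 in inflexible PFC, against 7.26, 7.83 and 7.26 in light PFC. It read 7.16, 7.06 and 7.47 in inflexible striatum, against 7.25, 7.25 and 7.01 in light striatum. The PFC classes overlapped, and on the 4 Gabrb2 probe sets above log2 4 their differences ran from -0.07 to 0.02, and the lead's interval was -0.51 to 0.44. Striatum was lower than PFC by the lead in light (-0.29 ± 0.21) and inflexible drinkers (-0.18 ± 0.21), with neither past the test. The other 3 probe sets were also below 0 in both, from -0.31 to -0.13.

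Gabrd encodes delta, the subunit of receptors outside the synapse that respond strongly to neurosteroids. Its lead, with a mean of 4.49, read 4.70, 3.94 and 4.57 in inflexible PFC, against 4.69, 4.18 and 4.55 in light PFC. It read 4.73, 4.74 and 4.43 in inflexible striatum, against 4.26, 4.57 and 4.48 in light striatum. Here the high-control PFC arrays were the lowest of their class, and all groups overlapped. The differences were -0.07 ± 0.20 in PFC (interval -0.52 to 0.38) and 0.20 ± 0.20 in striatum (interval -0.25 to 0.65), and the order of the 4 groups is not resolved.

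In striatum none of the 7 leads passed between inflexible and light drinkers, and 0 had an unadjusted p under 0.05, against 3.53% of all probe sets and 5.35% of those above log2 4. The limma test called 0.0111% of all probe sets and 0.0276% of those above log2 4 there. The median difference was 0.09 over the 7 leads and 0.00 (0.0020) over all probe sets. For the difference between the class effects of the regions the test called 0 of 7, against 0.313% of all probe sets and 0.885% of those above log2 4. The unadjusted p was under 0.05 for 2 of 7, Gabra3 and Gabra5, against 5.62% of all probe sets and 11.2% of those above log2 4. The intervals given for each gene show what 3 arrays a group leave undecided.

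**Figure D3:**
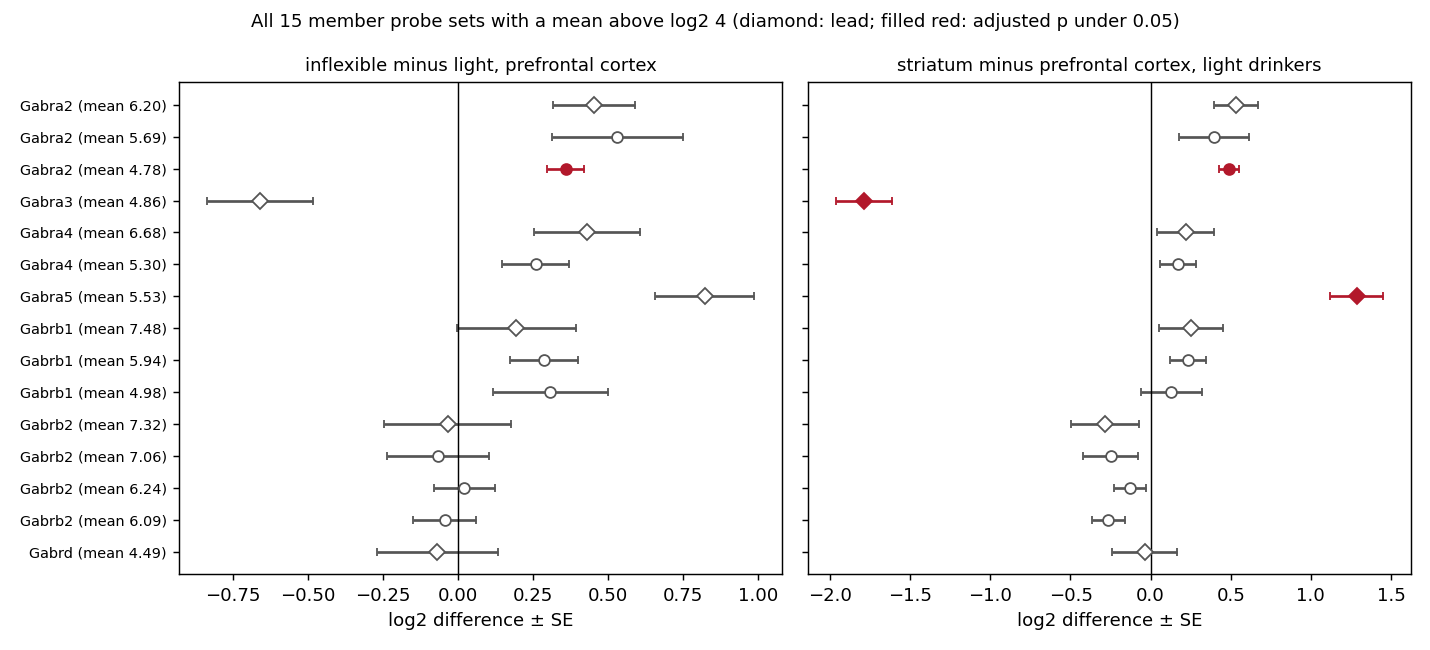
Difference ± SE (log2, x axis) of the 15 member probe sets with a mean above log2 4, 1 row each with its mean over 12 arrays, between the PFC classes and between the regions of light drinkers. Diamonds are leads and filled red points passed the test. Probe sets of a gene lay on the same side of 0, except 1 of 4 for Gabrb2 between the PFC classes.

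The lead probe sets of the members also followed the split in hybridisation controls. High-control minus low-control arrays of the same group differed by 0.27 to 0.62 for Gabrb1, by 0.12 to 0.67 for Gabrb2, by 0.09 to 0.56 for Gabra4 and by 0.07 to 0.61 for Gabra5, higher in all 4 groups. Gabra3 (-0.60 to -0.17) and Gabrd (-0.69 to -0.16) were lower in all 4 groups. Gabra2 was higher in 3 of 4 groups (-0.08 to 0.22). Other probe sets of a gene did not always follow its lead. A dimmer Gabrb1 probe set (mean 4.98) was lower on the high-control arrays in all 4 groups. In inflexible PFC it read 4.86 on the high-control array and 5.18 and 5.32 on the others. Each PFC class had 1 high-control array, so the split falls evenly on that comparison. In striatum inflexible drinkers had 2 and light drinkers 1. With the split as a block the striatal differences became 0.33 for Gabrd, 0.29 for Gabra3, -0.41 for Gabra5 and -0.19 for Gabrb1, and 0 of 7 passed.

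**Figure D4:**
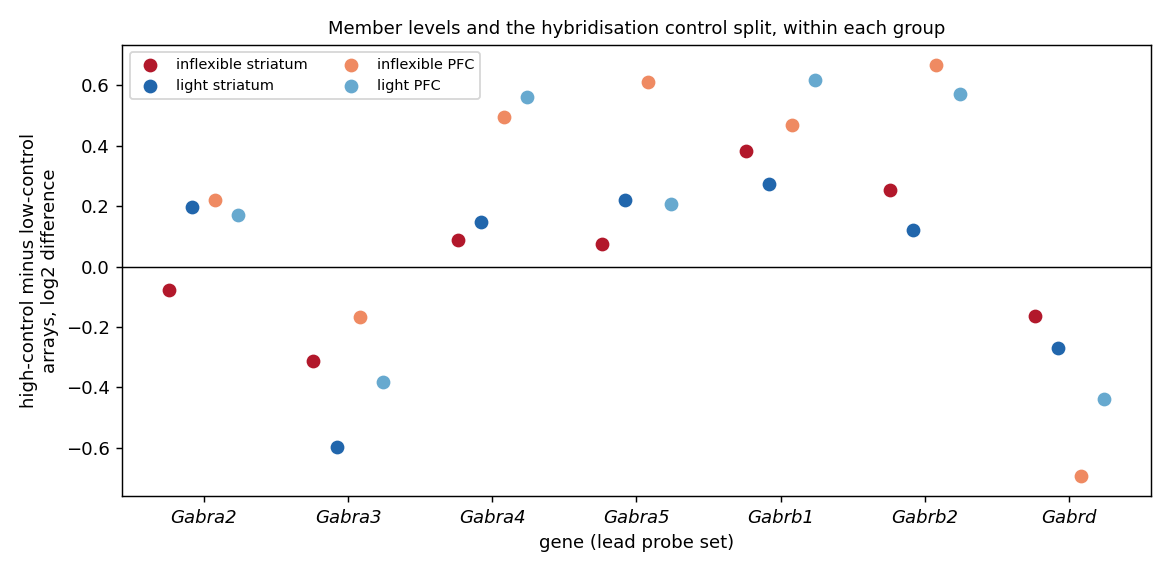
High-control minus low-control arrays (log2 difference, y axis) for each gene's lead probe set, 1 point per group of 3 arrays. Gabra4, Gabra5, Gabrb1 and Gabrb2 lay above 0 in all 4 groups, Gabra3 and Gabrd below 0 in all 4.

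The genes whose lead probe set followed each member most closely over the 12 arrays were found among 6464 named genes with a mean above log2 4. These correlations are descriptions, since the arrays share regions, pools and the control split. Gabra3 ran with Cux2, a transcription factor of upper cortical layers (Pearson r = 0.99), Fbxw7, a ubiquitin ligase subunit (0.98), and Camkk2, a calcium-activated kinase (0.98). Cux2 averaged 3.96 in inflexible striatum, 3.73 in light striatum, 5.34 in inflexible PFC and 6.29 in light PFC. Gabra5 ran with Cldn11, a claudin of myelin (0.97), Zfpm2 (0.97) and Zbtb20 (0.97), both transcriptional regulators. Zbtb20 averaged 7.55 in inflexible striatum, 7.82 in light striatum, 7.08 in inflexible PFC and 6.06 in light PFC. Gabra2 ran with Serinc5, a membrane protein (0.97), Arhgef26 (0.93) and the kinase gene Rps6ka5 (0.93).

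Among the other members, Gabra4 ran with Nebl (0.92), Dennd10 (0.92) and Cycs, cytochrome c (0.91). Gabrb1 ran with Luc7l2 (0.95), the lipoprotein receptor gene Vldlr (0.95) and Rab10 (0.94). Gabrb2 ran with Abi2 (0.95), the sodium channel gene Scn2a (0.95) and Ankrd17 (0.94). Gabrd ran with Abcf3 (0.95), the calcium sensor gene Ncs1 (0.95) and Uqcrc1, a subunit of respiratory complex III (0.94).

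Among the members themselves, Gabra3 and Gabra5 ran opposite to each other over the 12 arrays (r = -0.89), and Gabra2 ran with Gabra5 (0.87). Gabra4 and Gabrb1 had r = 0.79. Deviations from the group means correlated as closely for several pairs, at 0.895 for Gabra4 with Gabrb1 and for Gabrb1 with Gabrb2, 0.888 for Gabra5 with Gabrb2, and -0.905 and -0.919 for Gabrd with Gabrb1 and with Gabrb2. The leads of Gabra4, Gabra5, Gabrb1 and Gabrb2 were higher, and that of Gabrd lower, on the high-control arrays of all 4 groups. The part of the control split in these correlations was not tested. Gabra2, Gabra4 and Gabrb1 lie on chromosome 5. The outermost start sites of Gabra4 (minus strand) and Gabrb1 (plus strand) are 387 bases apart, and each gene runs across the start site of the other, so that their 5′ ends overlap. The windows below, from 250 bases before to 50 after the outermost start site, are RefSeq sequences of build GRCm38.p6, and 6 of the 7 genes were matched to a window in the table used here. They are shown for the subunits that differed most between the regions of light drinkers and for the overlapping pair. Each is given 5′ to 3′ on the gene's strand, and capitals mark a GC box or a TATA box.
Gabra3 (chrX:72656870-72657169, minus strand): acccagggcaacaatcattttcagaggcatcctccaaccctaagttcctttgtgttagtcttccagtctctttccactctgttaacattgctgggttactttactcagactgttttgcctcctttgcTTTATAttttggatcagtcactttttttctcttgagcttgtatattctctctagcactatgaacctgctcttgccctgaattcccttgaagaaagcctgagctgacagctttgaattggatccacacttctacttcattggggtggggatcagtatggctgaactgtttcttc
Gabra5 (chr7:57510010-57510309, minus strand): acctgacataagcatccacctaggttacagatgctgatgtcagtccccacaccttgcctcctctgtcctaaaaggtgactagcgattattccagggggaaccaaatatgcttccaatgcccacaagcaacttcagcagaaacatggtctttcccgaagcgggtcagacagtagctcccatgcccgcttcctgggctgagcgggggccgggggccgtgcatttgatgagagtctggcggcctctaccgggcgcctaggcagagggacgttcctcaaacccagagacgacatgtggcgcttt
Gabra2 (chr5:71095800-71096099, minus strand): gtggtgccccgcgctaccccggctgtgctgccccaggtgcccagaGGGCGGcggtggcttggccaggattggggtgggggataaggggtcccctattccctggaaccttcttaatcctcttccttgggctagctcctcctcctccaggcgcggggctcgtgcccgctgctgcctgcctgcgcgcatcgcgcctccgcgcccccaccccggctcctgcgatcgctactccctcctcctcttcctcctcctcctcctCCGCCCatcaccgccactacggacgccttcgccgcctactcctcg
Gabra4 (chr5:71658259-71658558, minus strand): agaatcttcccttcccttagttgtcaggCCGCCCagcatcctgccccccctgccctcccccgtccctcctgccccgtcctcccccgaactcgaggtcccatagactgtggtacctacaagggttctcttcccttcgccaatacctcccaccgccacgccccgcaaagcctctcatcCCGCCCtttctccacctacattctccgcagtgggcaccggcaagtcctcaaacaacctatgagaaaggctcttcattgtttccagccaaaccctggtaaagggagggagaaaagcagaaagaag
Gabrb1 (chr5:71657671-71657970, plus strand): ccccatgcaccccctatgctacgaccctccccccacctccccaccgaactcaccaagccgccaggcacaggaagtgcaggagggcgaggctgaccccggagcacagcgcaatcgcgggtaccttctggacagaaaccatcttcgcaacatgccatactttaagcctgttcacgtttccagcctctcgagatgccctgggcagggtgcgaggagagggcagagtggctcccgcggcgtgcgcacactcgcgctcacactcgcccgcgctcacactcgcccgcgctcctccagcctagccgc

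The windows differ in base composition. That of Gabra3, lower in striatum than in PFC, holds 0 CpG dinucleotides and 43% G and C, while those of Gabra2 (25 CpG, 70%), Gabrb1 (25 CpG, 66%), Gabra5 (13 CpG, 56.7%) and Gabra4 (12 CpG, 58.7%) are richer. The median of all windows in the table is 7 CpG and 52.7%. The search covered both strands for a GC box (GGGCGG, in 35.7% of 32851 windows), a TATA box (TATAAA, 13.6%), 2 forms of the site of EGR factors (GCGTGGGCG, 0.612%, and GCGGGGGCG, 2.91%) and the cyclic AMP response element (TGACGTCA, 1.79%). GC boxes matched in Gabra2 and Gabra4, 2 in each, and a TATA box on the opposite strand in Gabra3. The other motifs had no match in these 5 windows. A match is a description of letters and not a site.

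Beyond the 7 members, 8 further subunit genes of GABA-gated chloride channels were measured: Gabra6, Gabrg1, Gabrg3, Gabre, Gabrp, Gabrq, Gabrr1 and Gabrr2. Only 1 of the 8 leads, that of Gabrg1, had a mean above log2 4, and the limma test called 0 of 8 in each of the 5 comparisons, with an unadjusted p under 0.05 for 1 gene between the regions of inflexible drinkers and for 0 in the others. Among 27 measured genes of receptor anchoring and trafficking limma called 0 between the PFC classes (median difference 0.03, 2 at an unadjusted p under 0.05) and 0 between the striatal classes (median 0.0026, 1 at an unadjusted p under 0.05). Gephyrin (Gphn), the scaffold of inhibitory synapses, had the smallest p of the list in both. It averaged 5.47 ± 0.07 in inflexible and 5.21 ± 0.06 in light PFC (0.27 ± 0.06, limma adjusted p = 0.128), and 5.53 ± 0.11 in inflexible and 5.69 ± 0.08 in light striatum (-0.16 ± 0.06, adjusted p = 1.00). Between regions of light drinkers Gphn rose by 0.48 ± 0.06 (adjusted p = 0.00237), the only 1 of 27 called. Hap1, a trafficking adaptor, was next in PFC at 4.14 in inflexible and 4.50 in light drinkers (adjusted p = 0.550).

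Of 9 measured genes of chloride homeostasis, which sets the direction of GABA-A currents, 1 rose between the PFC classes and 0 fell. Car2, a carbonic anhydrase also abundant in oligodendrocytes, averaged 7.00 ± 0.10 in inflexible and 6.35 ± 0.06 in light PFC (0.65 ± 0.06, limma adjusted p = 0.00196), beside the higher myelin sum given above. It also rose by 0.95 ± 0.06 in striatum over PFC in light drinkers (adjusted p = 4.87e-05). Slc12a5, the neuronal chloride exporter, averaged 8.30 in striatum and 8.49 in PFC of inflexible drinkers (adjusted p = 0.872). The 4 measured genes of neurosteroid synthesis all had means under log2 4, and limma called 0 in the 5 comparisons, also 0 at an unadjusted p under 0.05.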

How the data were processed

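Biotin-labelled RNA of 12 samples was hybridised to 1-colour arrays. The deposited values are on a log2 scale, in 1 table with a row per probe set. Per the submitters' processing notes they came from RMA in affy, with versions not given. The log base is not stated and was read from the range of the values. RMA compresses low values, so differences of dim probe sets are understated, and the number of arrays limits the precision.

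Of 45101 probe sets 64 controls were left out. The platform annotation gave 34945 probe sets 1 symbol, 932 several and 9160 none. Of those with 1 symbol, 34741 matched RefSeq (GRCm38.p6) by gene ID, and 0 symbols changed. No array pair shared more than 0.626% of its values, and pairs within a group correlated at 0.976 to 0.998. Limma 3.58.1 in R 4.3.3 (lmFit, eBayes, 8 residual degrees of freedom) was fitted to all probe sets and tested on simulated data. P-values are two-sided and Benjamini-Hochberg adjusted over all 45037 probe sets, called under 0.05. Levels are means ± SD (n = 3 arrays) and differences ± SE. Intervals were computed with scipy 1.17.1 in Python 3.11.15 (numpy 2.4.6, pandas 2.3.3).

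All 7 members are named. For each, 3 genes with the highest correlation are named, predicted models left out. From each pathway list the called genes (up to 4 by p), or values of genes with the smallest p, are named. The members, lists and alternatives were chosen with earlier results of these data known. Deviations from group means of same-numbered arrays correlated at 0.741, 0.849 and 0.622 in PFC, and from -0.637 to 0.262 between the striatal groups. For inflexible PFC replicate 1 a light PFC array with another number correlated more closely. The replicate numbers come from the sample titles, which do not say what they mark. PFC replicates 1 and 3 are low-control arrays and replicate 2 is high-control in both classes. Alternatives were a replicate block, the control split as a block or within each set of arrays, quantile normalization, a filter above log2 4, array weights, averaged probe sets per gene, single arrays left out and fits of 2 groups.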

Additional observations from a re-analysis of the deposited data

Results flagged for a closer look

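Car2 is listed because its class effects differed between the regions by the test of the difference itself. Its class difference in striatum, at 7.28 ± 0.08 in inflexible and 7.31 ± 0.09 in light drinkers, lay 0.67 (SE 0.09) below that in PFC (-0.67, limma adjusted p = 0.0183). The call was lost without inflexible PFC replicate 3, light PFC replicate 1 or inflexible striatum replicate 3 (adjusted p from 0.0575 to 0.0632). It was also lost with the replicate block (0.0655), on the low-control arrays (0.159) and on the high-control arrays (0.637).

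Gphn is listed because all 3 inflexible arrays lay above all 3 light arrays in PFC and below all 3 in striatum. The difference between these effects was -0.43 (SE 0.09), which did not pass (adjusted p = 0.132) and passed with the control split as a block (-0.45, adjusted p = 0.0482). No member gene met either condition. Only the members and the called or smallest-p genes of the pathway lists were checked. Classes lay apart in either direction for 12.9% of all probe sets in PFC and 7.84% in striatum. The share lying apart in opposite directions was not counted.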

How the results depend on the processing

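For the 7 leads, the Gabra2 probe set called in PFC, Gphn and Car2, settings other than left-out arrays gave 445 values, of which 380 kept direction and call, 17 lost the call, 24 gained one and 24 turned sign. The member genes called between the PFC classes (0, with 372 probe sets in all) became 2 (1119 in all) with the control split as a block, 4 (2955) with array weights, 1 (1243) on the low-control arrays, 0 (0) on the high-control arrays, 1 (215) with the filter on low values, 1 (245) with probe sets averaged, 0 (198) with only the 2 groups and 0 (206) with the replicate block in all arrays. With the replicate block in the 6 PFC arrays, an alternative chosen after seeing the data, it was 1 (899). With array weights the 4 were Gabra2, Gabra3, Gabra4 and Gabra5. The filter and the averaging called Gabra5 (adjusted p = 0.027 and 0.044), and the low-control arrays Gabra3 (0.0152). The high-control arrays have 1 residual degree of freedom.

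For the difference between the class effects, the member genes called (0, with 141 probe sets in all) became 2 (443) with the control split as a block, 1 (800) with array weights, 1 (120) with the filter, 0 (51) with the replicate block and 0 (0) on the high-control arrays. Between the striatal classes 5 probe sets became 34 with the split as a block, 2 with the filter, 1 with only the 2 groups and 0 on the low-control or the high-control arrays. For the regions in inflexible drinkers the 1 member called (Gabra3, 348 probe sets in all) became 0 (243) with the replicate block (adjusted p = 0.134), 0 (61) with only the 2 groups (0.0826) and 0 (0) on the high-control arrays, and stayed 1 with the split as a block (972) and with array weights (886). For the regions in light drinkers the 2 members called (1496 in all) became 3 with the split as a block (3152), on the low-control arrays (3775) and with array weights (4685), and 0 (0) on the high-control arrays. For the other pairs of groups, deviations of same-numbered arrays correlated from -0.769 to 0.602, with no steady pairing by array number. The part of the control split in these correlations was not tested.

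Differences near 0 turned sign. With the split as a block this held for Gabrb2 in striatum (-0.068) and in the difference between class effects (-0.033), and for Gabra4 (-0.059) and Gabrb1 (-0.13) between regions of inflexible drinkers. On the low-control arrays it held for Gabrd in PFC (0.016), Gabrb2 in striatum (-0.064) and Gabrb1 between regions of inflexible drinkers (-0.083). On the high-control arrays it held for Gabrb2 in PFC (0.028), for Gabra2 in striatum (-0.065, and 0.094 by its PFC-called probe set), for Gabra2 (-0.0009), Gabra4 (-0.25), Gabra5 (-0.23), Gabrb1 (-0.17) and Gphn (-0.022) between regions of inflexible drinkers, and for Gabra4 (-0.056) and Gabrd (0.075) between those of light drinkers. With array weights it held for Gabra3 (-0.0086) and Gabrb1 (0.053) in striatum and Gabrb2 (0.018) between regions of inflexible drinkers. With probe sets averaged it held for Gabrb1 (0.0019) and Gabrb2 (-0.0695) in striatum, Gabrb2 in the difference between class effects (-0.052) and Gabrb1 between regions of inflexible drinkers (-0.051). The cause was not tested.

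Leaving out 1 array at a time gave 157 to 394 probe sets called between the PFC classes, 2 to 9 between the striatal classes, 62 to 161 for the difference between class effects, 158 to 404 between regions of inflexible drinkers (members called 0 to 1) and 942 to 1607 between those of light drinkers. Signs turned for Gabrb2 (-0.26 to 0.16) and Gabrd (-0.22 to 0.16) in PFC, and for Gabra2 (-0.0013 to 0.21), Gabra3 (-0.028 to 0.29), Gabrb1 (-0.13 to 0.084), Gabrb2 (-0.054 to 0.15) and Car2 (-0.072 to 0.022) in striatum. They turned for Gabrb2 (-0.0897 to 0.32) in the difference between class effects. They also turned for Gabra4 (-0.10 to 0.21), Gabrb1 (-0.086 to 0.17), Gabrb2 (-0.30 to 0.038) and Gabrd (-0.0025 to 0.38) between regions of inflexible drinkers, and for Gabrd (-0.18 to 0.069) between those of light drinkers. Gabra3 and Gabra5 between regions of light drinkers were called without any 1 of the 12 arrays (adjusted p at most 0.00341 and 0.0123). Signal near background limits Gabrd, Gabra3 in striatum (means of 4.26 in inflexible and 4.08 in light drinkers) and the 6 probe sets under log2 4.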
